A study of Mus musculus with 8 samples.

Results

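The methylome of naive CD4+ T cells was described on its own, from the 2 T cell libraries of a series that also holds B cells. Its members were 1-kb tiles of the autosomes with at least 5 CpGs and at least 20 reads in each library, counting only CpGs listed in both. Of 2313332 tiles with any such CpG, 1544149 (66.8%) passed, and they held 16714529 CpGs. No comparison with B cells was made.

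The cells came from the spleens of C57BL/6J mice of both sexes, aged 6 to 8 weeks, with no treatment or engineered allele in any group. They were depleted of other lineages with magnetic beads and then sorted by surface markers of naive cells, among them CD4+, CD44lo and CD25-, and cells of several mice were pooled. The labels list 4 T cell samples of the 8 in the series, 2 female and 2 male, but each sex has 1 file. Whether a file joins both samples of its group is not given. Each file was read as 1 library, so no spread between replicates was available. A difference between the libraries is therefore a difference between these 2 files, in which sex, pool and library preparation cannot be told apart. Each value carries counting error only, given as a 95% Wilson interval where shown, and reads were not counted as unique molecules. Reads were counted at each CpG and summed, so 1 fragment over several CpGs counts several times. The intervals and the Fisher test take these counts as independent, so intervals can be too narrow and p-values too small. The libraries held 337145369 (female) and 334518256 (male) reads at autosomal CpGs, with medians of 17 and 16 reads per CpG, and 78.6% and 78.9% of these reads were methylated. The median tile had 145 reads in the female library and 146 in the male.

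In mammals most cytosines followed by guanine carry a methyl group. The exceptions are CpG islands, where many CpGs lie close together around gene starts, and shorter CpG-poor stretches at promoters and enhancers in use, where bound factors go with low methylation. A naive CD4+ T cell is a resting lymphocyte that has left the thymus and has not yet met its antigen. It carries the T cell receptor with its CD3 chains, uses homing receptors such as CCR7 to enter lymph nodes, and makes cytokines such as interferon gamma or IL-4 only after activation.

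The promoter sequences below show the kinds of start that the results turn on. They are RefSeq sequences on GRCm38.p6, read 5′ to 3′ on the strand of the gene from 250 bases before to 50 bases after its start, with every CpG in capitals. The first 4 belong to T cell genes and have few CpGs, the fifth is the CpG island of a T cell transcription factor, the sixth a CpG-rich germline promoter and the last an imprinted one.
Cd3d: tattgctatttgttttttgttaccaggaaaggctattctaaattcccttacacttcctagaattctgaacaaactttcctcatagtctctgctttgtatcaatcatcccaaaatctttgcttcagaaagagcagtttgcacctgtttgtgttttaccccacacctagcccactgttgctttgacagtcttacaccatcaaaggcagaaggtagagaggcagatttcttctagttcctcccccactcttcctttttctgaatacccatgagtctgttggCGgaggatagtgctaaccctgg
Cd3e: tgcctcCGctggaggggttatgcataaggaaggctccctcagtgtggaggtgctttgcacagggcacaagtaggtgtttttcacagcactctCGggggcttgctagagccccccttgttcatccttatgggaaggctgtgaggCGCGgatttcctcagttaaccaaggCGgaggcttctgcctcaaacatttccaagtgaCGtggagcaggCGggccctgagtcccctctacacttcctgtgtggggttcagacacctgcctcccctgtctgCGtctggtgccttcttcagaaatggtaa
Cd247: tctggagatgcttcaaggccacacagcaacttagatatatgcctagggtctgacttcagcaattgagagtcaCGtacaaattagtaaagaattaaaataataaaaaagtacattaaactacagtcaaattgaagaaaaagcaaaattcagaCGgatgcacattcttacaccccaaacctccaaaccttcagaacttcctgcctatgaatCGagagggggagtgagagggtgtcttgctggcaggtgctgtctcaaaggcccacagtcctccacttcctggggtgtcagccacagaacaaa
Themis: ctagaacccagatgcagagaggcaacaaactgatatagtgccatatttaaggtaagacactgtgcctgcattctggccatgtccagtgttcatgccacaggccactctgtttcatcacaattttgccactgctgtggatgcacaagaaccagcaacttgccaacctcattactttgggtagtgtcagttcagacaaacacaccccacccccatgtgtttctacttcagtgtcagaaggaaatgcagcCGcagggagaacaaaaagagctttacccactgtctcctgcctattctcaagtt
Tcf7: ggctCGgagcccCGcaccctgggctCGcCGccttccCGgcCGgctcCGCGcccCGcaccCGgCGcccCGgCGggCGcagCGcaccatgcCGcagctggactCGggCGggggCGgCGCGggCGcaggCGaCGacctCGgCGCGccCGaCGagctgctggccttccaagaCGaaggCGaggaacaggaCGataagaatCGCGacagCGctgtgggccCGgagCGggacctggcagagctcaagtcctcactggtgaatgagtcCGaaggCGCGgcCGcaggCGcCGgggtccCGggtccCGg
Sycp1: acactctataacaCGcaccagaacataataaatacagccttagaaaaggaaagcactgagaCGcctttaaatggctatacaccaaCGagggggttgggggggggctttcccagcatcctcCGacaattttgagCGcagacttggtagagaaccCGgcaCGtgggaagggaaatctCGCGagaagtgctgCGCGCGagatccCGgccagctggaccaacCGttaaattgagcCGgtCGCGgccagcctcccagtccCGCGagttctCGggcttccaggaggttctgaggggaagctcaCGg
Peg3: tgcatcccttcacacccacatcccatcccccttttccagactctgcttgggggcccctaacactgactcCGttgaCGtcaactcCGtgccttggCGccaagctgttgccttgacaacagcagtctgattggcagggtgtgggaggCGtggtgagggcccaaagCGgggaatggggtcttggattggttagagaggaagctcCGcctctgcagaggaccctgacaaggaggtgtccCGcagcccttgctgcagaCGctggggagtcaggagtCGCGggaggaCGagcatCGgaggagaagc

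In the Cd3d sequence (chr9:44981536-44981835, plus strand) the only CpG was methylated in 0 of 16 female and 0 of 15 male reads. In Cd3e (chr9:45009562-45009861, minus strand) all 8 CpGs stood at 0% in both libraries, over 186 and 208 reads. The 3 CpGs of Cd247 (chr1:165788431-165788730, plus strand) were at 0% over 28 and 34 reads, and the single CpG of Themis (chr10:28668110-28668409, plus strand) at 0% over 34 and 22 reads. A count of 0 in so few reads still allows a low level in these short windows. The Tcf7 island (chr11:52282965-52283264, minus strand) packed 45 CpGs into 300 bases, at 0% of 1075 female reads and 0.177% of 564 male reads. Sycp1, which encodes a protein of the meiotic synaptonemal complex, has 21 CpGs in the same length (chr3:102936051-102936350, minus strand), and its reads were 94.2% and 93.7% methylated. The 13 CpGs of Peg3 (chr7:6730370-6730669, minus strand), an imprinted gene transcribed from the paternal copy, were at 52.5% and 49.7%, and single CpGs ranged from 36.4% to 75% in the female and from 27.3% to 69.2% in the male library.

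Across the tested tiles the T cell genome was mostly methylated. The median tile level was 90.5% in the female and 90.2% in the male library. A tile was called unmethylated under 20%, intermediate from 20% to 80% and methylated from 80%, where both libraries had to fall in the class. By this rule 39512 tiles (2.56%) were unmethylated, 202110 (13.1%) intermediate and 1201245 (77.8%) methylated, and in 101282 (6.56%) the libraries fell in different classes. The unmethylated tiles were few but CpG-rich, with a median of 32 CpGs against 9 over all tiles, and held 9.21% of the CpGs. Their median level was 4.76% in female and 4.90% in male cells.

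**Figure D1:**
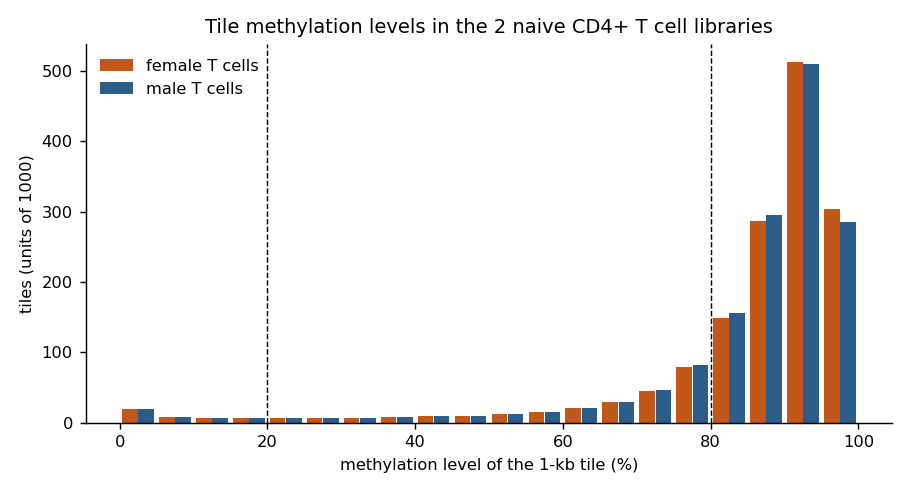
Number of 1-kb tiles (vertical axis, in units of 1000) by methylation level in bins of 5 percentage points (horizontal axis), with a bar for each T cell library and dashed lines at the class limits of 20% and 80%. Both libraries have their highest bar at 90% to 95% (512240 and 510094 tiles) and a small second rise at 0% to 5% (20215 and 19948 tiles).

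Place and CpG content went with the class. Tiles within a promoter window had a median level of 16.5% in the female and 16.8% in the male library, and 51.0% of the 33875 such tiles were unmethylated. In exons 3.40% of tiles were unmethylated, in introns 1.45% and between genes 1.02%. Among the 9106 tiles with at least 60 CpGs, 96.0% were unmethylated, against 0.497% of the 870805 tiles with 5 to 9 CpGs. By chromosome the unmethylated share ran from 1.87% on chromosome 18 to 3.89% on chromosome 11.

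At gene starts the picture turned round. The promoter window was 1 kb on either side of the annotated start of a protein-coding gene, and 19841 of 20807 autosomal genes could be tested. Of these windows 58.7% were unmethylated (11637), 15.7% intermediate (3112) and 21.1% methylated (4188), and in 904 the libraries differed in class. The unmethylated share was 11.5% among 5071 promoters of long intergenic noncoding RNAs and 0.663% among 8452 of processed pseudogenes. In unmethylated protein-coding promoters the level in the first 250 bases after the start was 0.675% in female and 0.688% in male cells, and it had risen to 60.2% and 60.6% by 2 kb into the gene. Intermediate promoters had a narrower and shallower dip, to 26.4% in each library, while methylated promoters stood at 88.9% and 88.7% in the same bin. The classes were set on these same CpGs, so their order within 1 kb of the start follows from the rule.

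**Figure D2:**
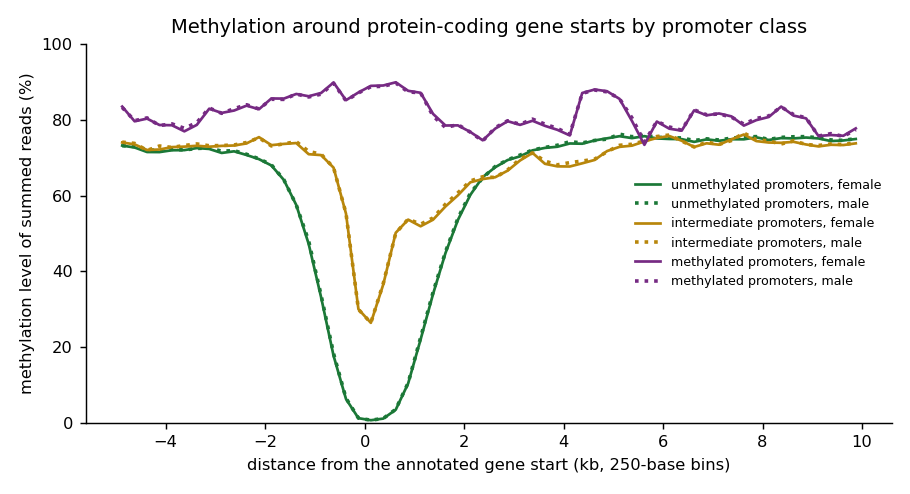
Methylation level of summed reads (percent, vertical axis) in 250-base bins from 5 kb before to 10 kb after the start of protein-coding genes (horizontal axis), by promoter class, with solid lines for the female and dotted lines for the male T cell library. The 2 libraries lie on each other, and the unmethylated class falls below 1% at the start. Within 1 kb of the start the order of the classes follows from the rule that set them.

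The class went with the CpG count of the window. With 80 or more CpGs, 97.2% of 7737 promoters were unmethylated. With 20 to 39 CpGs the share was 11.6%, with 10 to 19 it was 2.71%, and with 5 to 9 it was 0.596%, that is 9 of 1509. Windows with fewer than 40 CpGs were unmethylated in 437 of 6901 genes (6.33%). The CD3 chains, CD4 and Themis all have such CpG-poor promoters, which is why their levels are set beside this share as well as beside the 58.7% over all genes.

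The 5 genes that mark these cells had unmethylated promoters in both libraries. Cd3d, a chain of the CD3 complex, was at 2.03% (0.935 to 4.37) in female and 2.76% (1.55 to 4.87) in male cells over 19 CpGs. Cd3e, another chain of that complex, was at 1.23% (0.595 to 2.51) and 1.38% (0.727 to 2.60) over 28 CpGs. Cd247, the zeta chain that carries most of the signalling motifs, was at 0.566% (0.220 to 1.45) and 1.04% (0.530 to 2.05) over 39 CpGs. These 3 were near 0 in both libraries and their intervals overlapped between the libraries. Cd4, the coreceptor for MHC class II, was higher, at 9.87% (7.43 to 13) and 9.19% (6.87 to 12.2) over 23 CpGs. Themis, needed for thymocyte selection, had 7 CpGs and no methylated read among 164 female and 134 male reads, with upper limits of 2.29% and 2.79%. All 4 genes of the T cell receptor complex list were unmethylated, against 58.7% of all promoters, with a median level of 1.53% and 1.91%. The fourth is Cd3g, at 1.82% and 2.44%, whose window overlaps that of Cd3d and shares CpGs with it.

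The low level reached far beyond the start in some of these genes and not in others. Every tested tile over Cd3d was unmethylated, 7 of 7, within a run of 11 kb that also takes in the start of Cd3g but not most of that gene, whose body was at 45.1% and 43.6%. Over Cd247, a gene of 88.6 kb, 30 of 85 tiles were unmethylated, 36 intermediate and 14 methylated. Cd3e had 4 unmethylated tiles of 12, Cd4 had 5 of 24 and Themis 4 of 97. In Themis 60 of the 97 tiles were methylated, and 2 of its 4 unmethylated tiles lay more than 2 kb from any annotated transcript start.

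**Figure D3:**
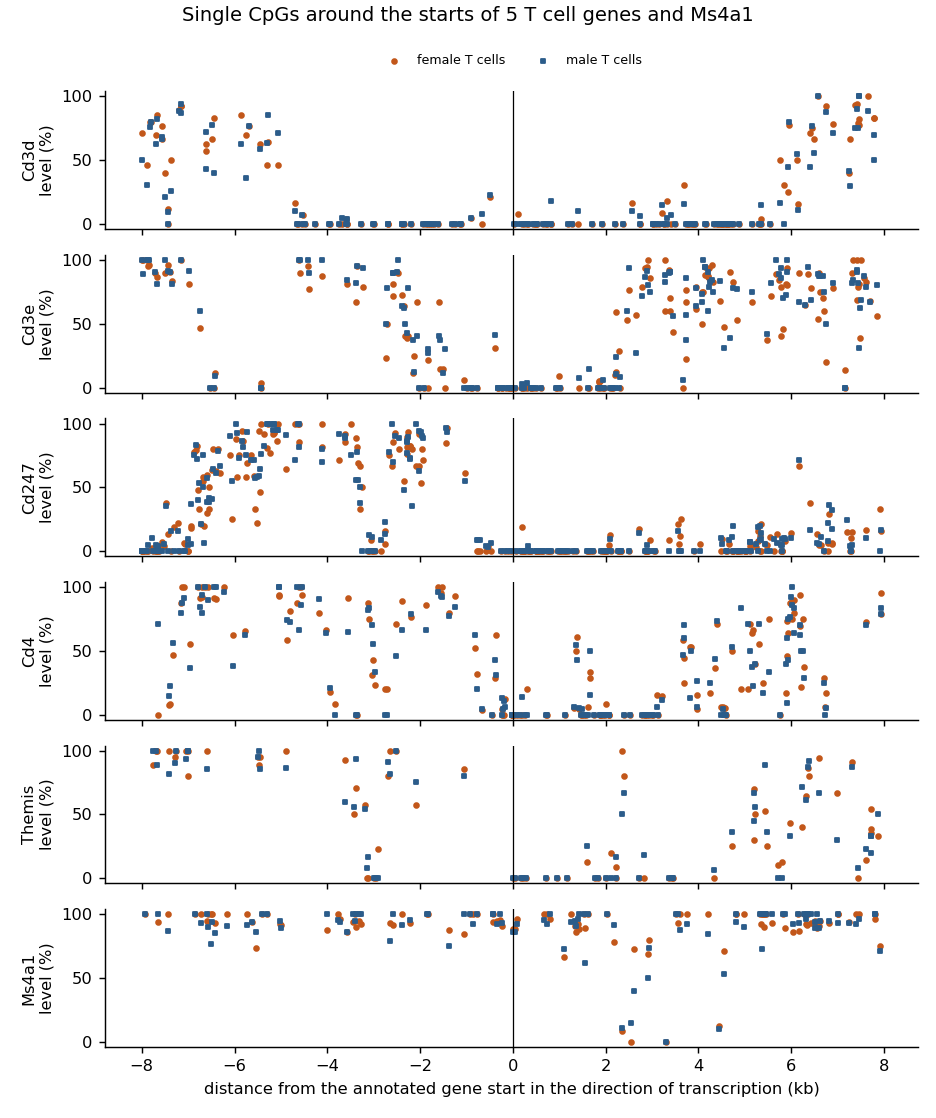
Methylation level (percent, vertical axis) of single CpGs by distance from the annotated start in kb along the direction of transcription (horizontal axis) for Cd3d, Cd3e, Cd247, Cd4, Themis and the B cell gene Ms4a1, with circles for the female and squares for the male T cell library. The 5 T cell genes have CpGs at or near 0% on and after the start, while the promoter of Ms4a1 stands at 95.2% in the female and 94.4% in the male library. Ms4a1 has the highest promoter of the 12 B cell genes and does not stand for them. Of these 12, 3 were unmethylated, 6 intermediate and 2 methylated.

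Of 8 promoters of the CD4 lineage surface list, 4 were unmethylated, 2 intermediate and 2 methylated, with medians of 17.1% and 14.9%. These counts are near the shares over all promoters, 58.7%, 15.7% and 21.1%. The lowest were Icos, a costimulatory receptor, at 5.66% and 3.74%, and Cd5, an inhibitory coreceptor, at 4.63% and 6.30%. Thy1, at 5.23% and 6.88%, was close to them. The highest were Cd28, the main costimulatory receptor, at 90% and 87.5%, and Ctla4, its inhibitory counterpart, at 86.8% and 90.04%. These values belong to the annotated start, and another transcript start of Cd28 was at 1.92% and 2.07%. Ctla4 fell to 18.2% and 24.4% at its lowest start. Cd2, an adhesion receptor, and Cd6, a coreceptor related to Cd5, were intermediate, at 24.7% and 20.6% and at 24.4% and 20.7%, just above the class limit.

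Proximal signalling genes, which carry the receptor's signal inwards, had 10 unmethylated promoters of 13, against 58.7% of all promoters, and in the other 3 the libraries fell in different classes. Besides Themis, Ptpn22, a phosphatase that restrains the receptor, was lowest at 0.716% and 0.388%. The 3 without a shared class all lay at the 20% limit: the kinase Zap70 at 20.2% and 17.0%, the adaptor Lat at 17.3% and 20.3%, and the kinase Txk at 19.3% and 20.5%. Lck, the kinase that starts receptor signalling, was at 7.65% and 7.49%. The list's medians were 3.24% in each library, against 11.1% and 11.5% over all promoters.

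Of the transcription factors of the T lineage 11 of 13 were unmethylated, against 58.7% of all promoters. Their windows had a median of 107 CpGs, and the count is not above the 97.2% of all promoters with 80 or more CpGs. Foxo1, which maintains expression of homing genes, was at 0.0292% and 0.0587% over 215 CpGs. Satb1, a chromatin organiser of thymocytes, was at 0.0491% and 0.0686%. Tcf7, the factor TCF-1, was at 0.264% and 0.261%. The exceptions were Runx3, at 33.6% and 30.6%, and Ets1, at 42.3% and 46.5%, and both had another transcript start near 0, at 0.0324% and 0.136% for Runx3 and at 0.204% and 0.185% for Ets1.

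The naive state and homing list had 8 unmethylated promoters of 9, against 58.7% of all promoters. Itga4, an integrin chain, was lowest at 0% and 0.253%, followed by the receptor Cd27 at 0.173% and 0.180%. Ccr7 was at 3.21% and 2.46%. Il7r, the survival receptor of naive T cells, was highest, at 25% and 19.9%, so that the libraries fell in different classes. Of the 8 Gimap GTPases, which sit in a cluster on chromosome 6 and sustain lymphocyte survival, 6 were unmethylated, from Gimap1 at 0.360% and 0.290% and Gimap6 at 0.962% and 1.80% up to Gimap3 at 9.70% and 13.2%. Of the others, Gimap8 fell in different classes in the libraries, at 22.2% and 13.4%, and Gimap7 was intermediate, at 27.0% and 22.0%. All 8 have fewer than 40 CpGs in the window.

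The lists were also counted among CpG-poor promoters. With fewer than 40 CpGs, 4 of 4 genes of the receptor complex, 3 of 7 of the CD4 surface list, 5 of 7 signalling genes, 4 of 5 of the homing list and 6 of 8 Gimap genes were unmethylated. Among T lineage factors the count was 1 of 2, among effector helper cytokines 1 of 12 and among effector and memory regulators 1 of 6. In the lists for B cells, myeloid cells, CD8 and cytotoxic cells, and erythroid cells and megakaryocytes these counts were 0 of 8, 0 of 9, 0 of 11 and 0 of 6. The CD8 and cytotoxic count rests on this window, since with 500 bases on either side 4 of those 11 promoters were unmethylated. Over all genes with so few CpGs the share was 6.33%. The lists were drawn up with earlier results of these data known, so the counts are descriptions.

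Of 12 promoters of cytokines that helper cells make after activation 7 were methylated, 4 intermediate and 1 unmethylated, against 21.1%, 15.7% and 58.7% of all promoters. Their windows had a median of 25 CpGs, and of all promoters with 20 to 39 CpGs 48.1% were methylated. The list had medians of 84.3% and 83.9%. The highest were Il5, an eosinophil growth factor, at 94.2% and 93.3%, and Il17a at 92.2% and 90.8%. Il4, the cytokine of type 2 helper cells, was at 85.3% (81.9 to 88.2) in female and 85.7% (82.2 to 88.5) in male cells. Ifng, that of type 1 helper cells, was intermediate, at 56.7% (52.3 to 60.9) and 57.2% (52.3 to 62.0). Csf2 and Il10 were also intermediate, at 44.7% and 48.1% and at 48.4% and 45.5%. Il2, which naive cells make first after activation, was at 55.1% (47.7 to 62.3) in the female and 39% (31.5 to 47.1) in the male library over only 12 CpGs, the widest gap between the libraries in these lists. Tnf was the unmethylated member, at 15.0% and 14.3%.

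Genes that direct effector and memory fates had 7 unmethylated promoters of 13 tested, near the 58.7% of all promoters. Bcl6, the factor of follicular helper cells, was lowest, at 0.193% and 0%, next to Ikzf2 at 0.179% and 0.127%. Il2ra, which encodes the CD25 that the sort selected against, was at 12.8% and 10.2%. Tbx21, the factor of type 1 helper cells, was at 1.87% and 2.38%. The chemokine receptor Ccr4 was highest at 88.8% and 87.5%, with Cxcr5 at 79.9% and 86.9%. Cxcr3 lies on the X chromosome and was not measured here.

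Markers of other blood cells were read in the same way. No promoter of the 11 CD8 and cytotoxic genes was unmethylated, and 6 were intermediate and 4 methylated, against 58.7%, 15.7% and 21.1% of all promoters. Their windows had a median of 16 CpGs, and of all promoters with 10 to 19 CpGs only 2.71% were unmethylated, so a count of 0 is near that share and says little about these genes. This count depends on the window: with 500 bases on either side of the start 4 of these promoters were unmethylated, and with class limits of 25% and 75%, or in the female library alone, 1 was. Cd8a, the CD8 coreceptor chain, was at 56.1% (52.6 to 59.5) and 57.2% (53.1 to 61.3). The lowest were Klrd1, at 15.4% and 22.4%, and Cd8b1, at 28.0% and 28.8%, whose window also holds the start of Smyd1. The highest were the receptors Ncr1, at 90.7% and 87.3%, and Klrk1, at 91.4% and 85.6%.

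Of the 12 B cell genes 3 were unmethylated, 6 intermediate and 2 methylated, against 58.7%, 15.7% and 21.1% of all promoters and 11.6%, 35.2% and 48.1% of those with 20 to 39 CpGs. Ms4a1, the B cell surface protein CD20, was highest at 95.2% (92.0 to 97.2) and 94.4% (90.9 to 96.6), followed by Fcrla at 91.1% and 90.8%. The B cell factors Ebf1, at 5.43% and 4.33%, and Pax5, at 17.5% and 18.5%, were unmethylated although they belong to another lineage, and so was Vpreb1, at 3.12% and 2.69%, whose window holds the start of Top3b. Among 12 myeloid genes 3 were unmethylated, namely Cebpa at 0.654% and 0.836%, Fcgr3 at 6.30% and 5.44%, and Cd14 at 11.5% and 11.7%. The Fcgr3 window had 50.4 and 41.0 reads per CpG, far above the medians of 17 and 16. The neutrophil protease Elane, at 88.4% and 89.2%, and the receptor Csf1r, at 91.5% and 90.9%, were highest. Of 8 erythroid and megakaryocyte genes 7 were intermediate, up to Itga2b at 57.7% and 61.8% and Gp1ba at 63.8% and 66.9%, and 1, the factor Tal1, was unmethylated at 7.96% and 6.12%, with Klf1 next at 22.8% and 24.3%.

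Genes used in every cell were unmethylated in 9 of 11 tested cases, against 58.7% of all promoters and 97.2% of those with 80 or more CpGs, with medians of 3.003% and 2.88%. Polr2a, the large subunit of RNA polymerase II, was at 0.0678% and 0%, and Actb at 0.722% and 0.498%. Eef1a1, at 39.4% and 36.6%, and Rpl3, at 20.5% and 19.8%, were highest at the annotated start, and each was under 1% at another of its transcript starts. The genes of the methylation machinery showed the same dependence on the start. Tet2, a dioxygenase that oxidises 5mC, was at 0.675% and 0.612%, and Tdg, the glycosylase that removes oxidised forms, at 3.13% and 5.29%. Dnmt1, the maintenance methyltransferase, stood at 88.6% and 89.0%, and Tet1 at 89.5% and 89.3%, but their lowest starts were at 1.59% and 2.5% and at 5.60% and 5.76%. Tet3 and Dnmt3l lay at the 80% limit, at 81.6% and 76.1% and at 78.8% and 80.5%.

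Germline genes had CpG-rich and yet methylated promoters. Of 13 tested promoters 11 were methylated, against 21.1% of all promoters, although their windows had a median of 63 CpGs. Brdt, a testis bromodomain protein, was highest at 96.5% and 96.0%, followed by the kinase gene Stk31 at 96.6% and 95.8%, though another transcript start of Brdt was at 12.5% and 14.2%. Dazl, an RNA-binding protein of germ cells, and Tdrd1, of the piRNA pathway, were intermediate, at 59.7% and 61.5% and at 77.0% and 79.8%. Within the 300 bases at the Dazl start, however, 28 CpGs were at 97.1% and 97.2%, so the lower value of its window came from CpGs farther from the start. The 10 methylated promoters with the most CpGs among all genes included the germline genes Sycp1 (100 CpGs, 95.2% and 94.5%), Ddx4 (88 CpGs, 95.4% and 96.7%), D1Pas1 and the testis histone Hist1h2ba. Hoxa5, a homeobox gene, led them with 137 CpGs at 96.5% and 95.6%. The others were 4933428G20Rik, Hsf5, 4933416C03Rik, Mcts2 and Zfp541.

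Of 14 promoters of regulators of the development of other organs 13 were unmethylated, against 58.7% of all promoters, with medians of 5.58% and 5.41%. Their windows had a median of 94.5 CpGs, and of all promoters with 80 or more CpGs 97.2% were unmethylated, so the count is near that share. Lhx2, at 1.79% and 2.18%, and Gata6, at 3.20% and 2.90%, were lowest. Gata4 was the exception, at 26.2% and 32.0%, with another start at 5.14% and 4.66%. Tbx5, at 9.36% and 8.86%, came next. Proteins of other organs that are no regulators had methylated promoters in 6 of 9 tested cases and an unmethylated one in 0. Their windows had a median of 24 CpGs. Of all promoters with 20 to 39 CpGs 48.1% were methylated and 11.6% unmethylated, and the count of 0 is near the latter share. Crygd, a lens protein, was highest at 93.4% and 94.8%, with the insulin gene Ins2 at 91.2% and 95.3%, while Gfap, of astrocytes, was lowest at 58.3% and 54.9%, followed by Tnni2 at 73.4% and 74.5%.

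Starts of imprinted genes, where the copies from mother and father differ, were intermediate in 16 of 20 cases, against 15.7% of protein-coding promoters. The list also holds noncoding genes such as Kcnq1ot1 and Airn, and 23.9% of promoters of long intergenic noncoding RNAs were intermediate. The windows had a median of 75.5 CpGs, and of protein-coding promoters with 60 to 79 CpGs 10.4% were intermediate. Peg3 was at 50.9% (48.5 to 53.3) and 49.1% (46.8 to 51.4), and Kcnq1ot1 at 49.1% and 47.4%. Airn was at 47.5% (44.4 to 50.7) in the female and 36.9% (33.5 to 40.3) in the male library. These intervals take reads at neighbouring CpGs as independent, and the gap was not tested. Inpp5f, at 8.56% and 9.95%, and Grb10, at 23.4% and 22.3%, were lowest. The 3 methylated starts were Igf2, at 88.4% and 91%, Mest, at 93.4% and 93.7%, and Mcts2, at 94.9% and 93.4%. Other transcript starts of Igf2 and Mest stood at 3.81% and 3.45% and at 43.4% in each library.

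**Figure D4:**
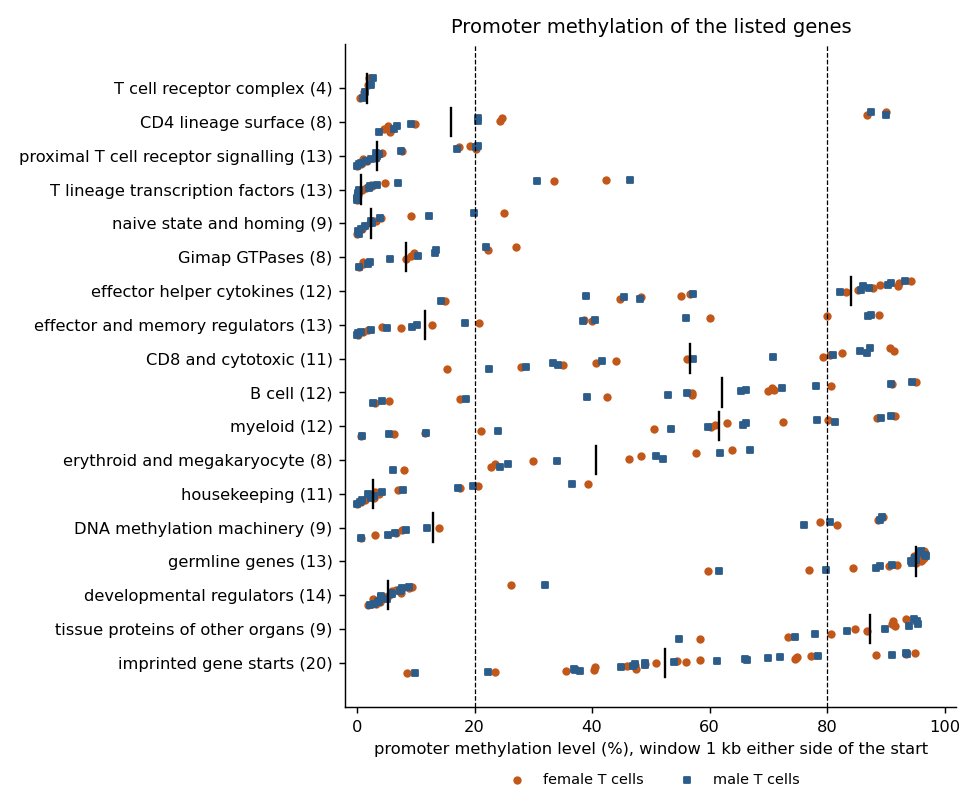
Promoter methylation level (percent, horizontal axis) of each tested gene in 18 lists (vertical axis, number of genes in brackets), with circles for the female and squares for the male T cell library, black bars at the list median of the mean of both, and dashed lines at 20% and 80%. The T cell receptor complex lies under 3%, imprinted starts have medians of 52.6% and 51.5%, and germline genes above 80% with 2 exceptions.

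Gene bodies, from 2 kb after the start to the end of genes, were methylated in 10997 of 14350 cases, with medians of 87.5% and 87.3%. A mean level under 50% was rare, in 456 bodies (3.18%), and one under 30% was found in 162. Ccr7 had the fifth lowest body of all, at 5.63% (4.83 to 6.56) and 5.25% (4.46 to 6.16) over 166 CpGs. It was alone among the 20 lowest in being on a T cell list. Of the others 15 encode developmental regulators or related factors, among them Hmx2, at 5.13% and 5.71%, Pou3f3, Skor1, Isl2, Tbr1, Shox2, Hoxd11, Prdm13, Otp, Lhx5, Hmx1, Sp9 and Osr2, the last at 7.03% and 7.29%. The remaining 4 were Hnrnpf, at 6.38% and 6.23%, Tbc1d10c, at 6.74% and 6.16%, Islr2, at 6.30% and 7.10%, and Mettl23, whose body holds the starts of 2 other genes. The highest bodies were BC005561, Stk19, Rbak, Yipf5 and Bub1, at 96.5% to 97.5% in each library.

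Bodies under 50% were found among 8 of 13 transcription factors of the T lineage, against 3.18% of all genes, and the list's median was 33.5% against 87.4% over all genes. Zbtb7b, the factor that commits cells to the CD4 fate, was lowest at 11.3% and 11.0%, then Tcf7 at 14.5% and 14.9%, Gata3, whose body also holds the start of 1 other gene, at 22.4% and 22.9%, Satb1 at 25.3% and 25.1%, Bcl11b at 27.9% and 26.0% and Lef1 at 33.3% and 31.6%. Ikzf1 and Ets1 stood near 34%, at 34.5% and 32.6% and at 33.9% and 34.1%. Tox, at 77.9% and 79.3%, and Myb, at 76.9% and 77.7%, were highest. Cd2, of the CD4 surface list, was at 10.6% and 8.43%. Among the marker genes the body of Cd247 was at 36.7% and 36.2%, that of Cd3e at 60.6% and 61.6%, that of Cd4 at 66.5% and 63.6% and that of Themis at 79.7% and 80.2%. Their order by body level was thus not that of their promoters, where Themis was lowest. Of the 12 bodies of the signalling list 2 were under 50%, and Lck was at 39.8% and 40.7%.

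The other lists spread widely. Of 7 B cell genes 0 were under 50%, with a median of 85.8%, and of 5 myeloid genes 0, with a median of 84.6%, which is near the share of 3.18% and the median of 87.4% over all genes. The erythroid and megakaryocyte list had a lower median than the CD4 surface list, 61.5% against 65.1%, with 1 of 3 bodies under 50%, that of Tal1 at 39.5% and 42%. Of 5 housekeeping bodies 2 were under 50%, with Eef1a1 at 18.6% and 18.9%, and of 10 imprinted ones 1, Igf2 at 21.9% and 21.1%. The median of 13 effector and memory regulators was 73.1% and that of germline bodies 88.9%. Developmental regulators had the lowest median of the lists, 28.0% over 8 bodies, 6 of them under 50%. Genes with an unmethylated promoter did not have lower bodies in general: their median was 88.8% and 88.6%, against 85.5% and 85.2% for genes with a methylated promoter.

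**Figure D5:**
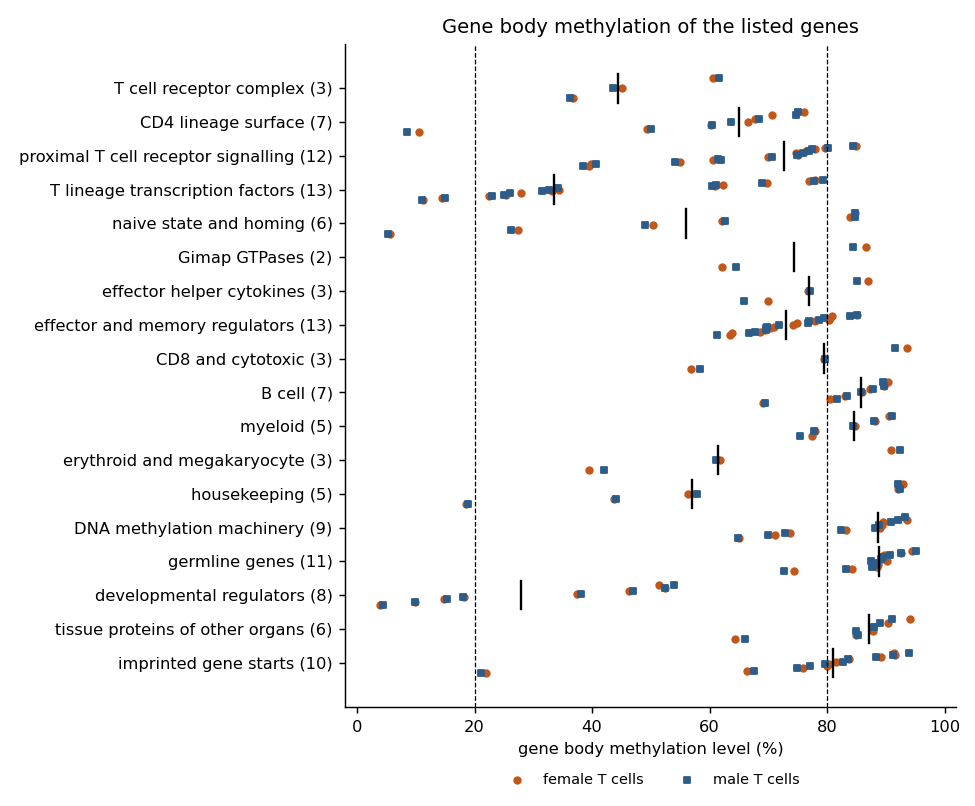
Gene body methylation level (percent, horizontal axis) of each listed gene with a body of at least 5 kb and 50 CpGs (vertical axis, lists with the number of genes in brackets), with circles for the female and squares for the male T cell library, black bars at the list median and dashed lines at 20% and 80%. Ccr7 at 5.63% and 5.25% and several T lineage factors lie far below the median of 87.4% over all genes.

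Neighbouring unmethylated tiles were joined into 23378 runs. Most were short: 13412 were a single tile, 628 reached 5 kb and 70 reached 10 kb. The longest, of 38 kb, lay within Ets1, a transcription factor of lymphocytes, at chr9:32695001-32733000 and at 1.17% and 1.02% over 490 CpGs. It starts well after the annotated start, whose own window was intermediate. The other transcript start of Ets1 named above was unmethylated, and its place relative to the run is not given here. The second, of 31 kb, took in the start of Pax6, an eye and brain regulator, and most of the gene but not its end, at 7.30% and 8.12%. The third, of 27 kb, overlapped the constant gene of the T cell receptor alpha chain (Trac) and 21 joining segments at chr14:54197001-54224000, at 7.75% and 6.80%. The fourth, of 22 kb, lay over the start of Tcf7 and most but not all of the gene, at chr11:52263001-52285000, at 1.99% and 1.71%. The other 6 of the 10 longest, of 18 to 21 kb, lay at Dlx1 and Dlx2, Uncx, Cbx8, Lbx1, Fgfr2 with Hmx3 and Hmx2, and Onecut1, at 4.36% to 7.65%. Of these 10 runs the pair at Ets1 and Tcf7 were the least methylated in both libraries.

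Further long runs lay at the starts of listed T cell genes. Those of Bcl11b, Lef1, Zbtb7b and Ccr7 spanned 17, 16, 15 and 14 kb, and that of Cd3d with Cd3g spanned 11 kb. Cd247 and Rasgrp1, an activator of Ras, had 10 kb each. Among developmental regulators Sox2 had 10 kb. Of the B cell list the longest run at a start was 7 kb, at Pax5. Runs were read off as they stood, and the mean level in them was fixed under 20% by the rule.

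Unmethylated tiles away from any start, more than 2 kb from every annotated transcript start, numbered 10798, or 27.3% of the unmethylated tiles. They were poorer in CpGs than those near starts, with a median of 14 against 42, but richer than all tested tiles away from starts, with 8. Of them 38.6% lay in introns and 50.5% between genes, near the 35.3% and 55.4% of all tested tiles away from starts. Summed over protein-coding genes, 0.934% of 590559 tested tiles of this kind were unmethylated, where a tile in overlapping genes counts for each of them. In the T lineage factors the share was 16.5% (163 of 985), in the receptor complex 27.7% (18 of 65), in the homing list 16.6% (26 of 157) and in the signalling list 6.26% (51 of 815). In the CD4 surface list it was 12.8% (14 of 109) and in the Gimap genes 9.52% (2 of 21). Of the lists for other cells or states, erythroid and megakaryocyte genes had 8% (2 of 25), effector helper cytokines 6.90% (2 of 29), effector and memory regulators 4.36% (17 of 390), myeloid genes 2.33% (2 of 86), CD8 and cytotoxic genes 1 of 74 tiles and B cell genes 0.515% (3 of 582). In germline genes it was 0.394% and in developmental regulators 24.9% (48 of 193). Tiles of a gene are neighbours and not independent, so these shares have no test.

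Of the 20 genes that held the most such tiles, Ets1 had 42 of 96 tested tiles, at 3.65% and 3.46% over these tiles. Bcl11b, which fixes the T cell fate, had 37 of 90, Lef1, the partner of TCF-1, 26 of 101, Ptprc, the phosphatase CD45, 24 of 50, and Ikzf1, the factor Ikaros, 23 of 61. Prkch, a protein kinase C, followed with 21 of 176. The adaptor Grap2, the repressor Bach2 and Cd247 had 17 each. Ccr7 had only 9 tested tiles of this kind, and all 9 were unmethylated. Gm20388, a predicted locus of 4.4 Mb that spans other genes, had the highest number, 76 of 3157. Tfap2b, with 17 of 19, and Gata4, with 16, are regulators of other organs. Gm20696 and Foxp1, which overlap and can share tiles, and Pde4d had 16 each, and Myh9, Elf1, Ccnd3 and Ostm1 15 each. The counts are not scaled for gene length. In Pde4d, of 1503.5 kb, 16 tiles were 1.66% of those tested, while in Ets1, of 121.6 kb, the share was 43.8%.

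Short motifs of factors active in T cells were counted in these tiles on both strands, and none of the motifs contains another. The RUNX motif TGTGGTT was in 30.04% of unmethylated tiles away from starts, against 21.8% of all tested tiles away from starts. The ETS motif GGAAGT was in 57.2% against 46.1%, and the E-box CAGCTG in 46.8% against 34.4%. The GATA motif AGATAA was in 42% against 47.4%, and the TCF/LEF motif CTTTGAT in 16.3% against 17.6%. The SP/KLF motif GGGGCGGGG, which holds a CpG itself, was in 9.01% against 1.92%. The unmethylated tiles were richer in G and C, with a median of 48.0% against 43.3%. Among tiles of 40% to 50% GC, RUNX stood at 34.2% against 22.1%, ETS at 59.9% against 47.1% and the E-box at 44.0% against 36.6%, while GATA, at 47.5% against 45%, and TCF/LEF, at 18.3% against 16.2%, changed their order. A match is a run of letters and not a bound site.

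Intermediate tiles were the second largest class. Of them 11.5% lay next to an unmethylated tile, a share that was not computed for all tiles. More than 2 kb from a transcript start lay 78.2% (158139 of 202110), below the share over all tested tiles (1288051 of 1544149). Few were even: in 6.11% at least 80% of the CpGs were themselves between 20% and 80%, with the reads of both libraries summed. Among the 33295 tiles at 40% to 60% in both libraries this share was 11.8%. The 10 of these with the most CpGs had 97 to 124 CpGs. They lay at Rbmxl2 (2 tiles, 57.7% and 50.03% in the first and 53.3% and 58.7% in the next), Tmem151b (49.7% and 51.1%), Gal3st3 (53.5% and 54.3%), Crb2 (58.2% and 54.2%), in the pseudogenes Gm13034, Gm49386 and Gm49697, at Gm21863, and in a stretch of chromosome 12 whose nearest coding gene, Ywhaq, is 360364 bases away. None of these genes is on a list used here.

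The 2 libraries were close tile by tile. The median size of the difference was 2.43 percentage points, and the median of the signed difference, female minus male, was 0.147 points. Of all tiles 78.7% were within 5 points and 96.1% within 10. Pearson's r over tiles was 0.970 and Spearman's rho 0.828, given as a description over 1544149 tiles that come from the same 2 libraries. The variance of the difference was 1.27 times what counting of independent reads gives. Fisher's exact test per tile, 2-sided with Benjamini-Hochberg adjustment over all tiles, called 231 tiles (0.015%) at an adjusted p under 0.05 with a difference of at least 20 points, 132 higher in the female and 99 in the male library. Without the 20-point minimum 1383 passed. Since the variance exceeds counting, a chi-square test scaled by that ratio was also run, and it called 81. Of the 231 tiles 147 were intermediate in both libraries and in 84 the libraries fell in different classes. Tiles unmethylated in both cannot differ by 20 points and tiles methylated in both can barely do so, so calls in those classes were kept out by the rule.

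The largest difference was at a tile 2916 bases from the start of C1s2 at chr6:124639001-124640000, with 94.6% (91.6 to 96.6) in the female and 19.2% (17.0 to 21.5) in the male library (adjusted p = 2.49e-137 by Fisher's exact test). The male library had 3.69 times as many reads per CpG there as the female after scaling for depth, and the part of this in the difference was not tested. An intronic tile of Snd1 stood at 89.9% and 46.1%, and one of Ctnnd2 at 67.6% and 25%. In the other direction an intronic tile of Themis, at chr10:28816001-28817000, was at 26.7% (19.1 to 36.1) and 60.7% (50.3 to 70.2) over 6 CpGs (adjusted p = 0.00753 by Fisher's exact test), and a tile near Marveld2 at 19.6% and 54.9%. The others of the 10 largest in each direction lay in or nearest to Gm13710, Gm19585, 9530059O14Rik, Ift57, Rad51b, Creb5 and Gm10273, and to Prickle1, Rasa1, Mtpn, Gm10747, Klrb1f, Lum, Mmd and Stk39. With the scaled test 9 of these 20 tiles were no longer called: those of Gm13710, Rad51b, Creb5, Themis, Mtpn, Klrb1f, Lum, Mmd and Stk39.

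Intracisternal A particles (IAPs) are retroviral insertions. The study lists candidates whose methylation varied between samples pooled from several mice, a list drawn partly on these libraries. It tested a subset of them between single mice. Of 286 tested tiles that overlap a listed autosomal element, 10 were called (3.50%, against 0.015% of all tiles). Since these libraries helped to choose the list, the count is no independent evidence of variation. They include the tiles at Gm13710, Snd1, Gm10273 and Marveld2 above. Of the 286 tiles 156 were methylated, 84 intermediate and 10 unmethylated, with medians of 85.6% and 84.4%. Their median absolute difference between the libraries was 3.66 points, against 2.43 over all tiles.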

How the data were processed

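DNA of sorted naive CD4+ T cells had been read by whole-genome oxidative bisulfite sequencing. The authors deposited, for each CpG with at least 5 reads, a methylation level, given as a fraction, and a read count, with both strands joined. The submitters' processing notes name Trim Galore, FastQC, Bismark 0.13.1 and mm10. Removal of duplicate reads, and whether a file joins both samples of its group, are not given in the sources used here. The oxidation is meant to leave 5mC as the only form read as C, but the study's methods state that its protocol also reads 5hmC, and give its amount relative to 5mC as very small.

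The deposited fractions were rounded up to 3 decimals, and 100% of them equalled whole methylated reads over the read count once that ratio was rounded up in the same way (tolerance 1e-06), so methylated reads were recovered from them. Positions count from 0 in the files and from 1 here, and 100% fell on a CG of GRCm38. Reads were summed over tiles, promoters and gene bodies (GENCODE M21), and levels are methylated over all reads. Promoters needed 5 CpGs and 20 reads per library, and bodies 5 kb and 50 CpGs. Fisher's exact test (tested on simulated data with independent reads) with Benjamini-Hochberg adjustment compared the libraries, with Python 3.11.15, numpy 2.4.6, pandas 2.3.3, scipy 1.17.1 and numba 0.67.0. With 1 file per sex, no test between the sexes was made. Files of B cells, the sex chromosomes and CpGs listed in 1 file were left out.

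Members, lists, motifs and the rule for naming were chosen with earlier results of these data known. Named were the markers; per list the 2 lowest and 2 highest promoters and members outside the commonest class where at most 5; the 10 longest runs; the 20 lowest and 5 highest bodies; the 10 half-methylated tiles with most CpGs; the 10 largest called differences in each direction; the 10 methylated promoters with most CpGs; and the 20 genes with most unmethylated tiles away from starts. Some genes that this rule names are not reported here. Other names were chosen after their values were seen. Alternatives covered limits on CpGs, reads and class, tile and window sizes, weighting, each library alone and the choice of start.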

Additional observations from a re-analysis of the deposited data

How the results depend on the processing

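With 1 file per sex no spread between replicates could be had, and Wilson intervals cover counting error only. No paired analysis was possible because each group has 1 file and the groups share no replicate number. No replicate could be left out for the same reason, so each library was read alone in its place. Of 77 alternative values of the main results 61 kept within 1.5 times the reported value. The unmethylated share of tiles (2.56%) was 5.23% with at least 10 CpGs, 5.02% in 500-base tiles and 1.39% in 5-kb tiles. Class limits of 10% and 90% gave 37.5% intermediate and 43.9% methylated tiles, 7565 intermediate and 1659 methylated promoters and 4875 unmethylated tiles away from starts, and limits of 25% and 75% gave 8.69% intermediate tiles. Unmethylated tiles away from starts numbered 23566 in 500-base and 437 in 5-kb tiles. The 231 calls between the libraries became 14 in 5-kb tiles, 1383 with no minimum difference, 25 at 30 points and 81 with the chi-square test scaled by the variance ratio. Bodies under 50% (456) were 291 when the first 5 kb were left out, which leaves fewer genes (12873), and 10 of the 20 lowest were shared. The lowest of all transcript starts, an alternative chosen after seeing the data, gave 12635 unmethylated promoters in place of 11637, and it moved single genes such as Cd28, Ets1 and Dnmt1 across classes.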

Other observations

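Promoters that were unmethylated in both libraries with fewer than 20 CpGs in the window numbered 69 of 3719 (1.86%), and these were read through after their values were seen. Of the 69, 9 are on a list used here, among them Themis, Il2ra, Icos, Lcp2, Cd3g, Gimap6, Gimap4 and Cd3d. The genes named next were picked from the others by name and do not stand for the whole set. It also holds Gpr84, at 17.1% in the female and 12.3% in the male library, and Alox5ap, at 15.0% and 12.8%. Acp5, at 19.2% in each, and predicted genes such as Gm8369, at 14.7% and 13.9%, belong to it as well. Ptprc, the phosphatase CD45 found on leukocytes, was at 9.58% in the female and 3.14% in the male library over 13 CpGs. Cd69, an early activation receptor, was at 0.360% and 0% over 17 CpGs. Tespa1, which acts in thymocyte selection, was at 7.95% and 5.81% over 6 CpGs, and Cd53, a tetraspanin of leukocytes, at 11.5% and 6.35% over 5. Hcls1, a substrate of lymphocyte kinases, was at 2.79% and 1.60%. Lax1 and Sh2d2a, adaptors of receptor signalling, were at 5.52% and 7.30% and at 4.85% and 6.19%. Genes of the interferon response such as Gbp2 (10.6% and 11.7%), Gbp3 (6.52% and 6.59%) and Rsad2 (13.8% and 12.3%) were also in the set, and so was Mbnl1, an RNA-binding protein of wide use, at 0% in each library over 9 CpGs. Some of the 69 share CpGs: Tcte3, Ermard and Gm3448 have overlapping windows with the same 12 CpGs, at 0% in each library, so 1 value counts for all of them, and the windows of Cd3d and Cd3g overlap as well. No share of genes of any cell type was tested.

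The mitochondrial genome gave a check on conversion of unmodified cytosine only, taking its CpGs as unmethylated, and none on the oxidation step. Of its reads at CpGs 0.0733% were methylated in the female and 0.0709% in the male library, over 147287 and 129679 reads.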
